A study of Mus musculus with 24 samples.

Results

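The 802 promoters described here had called peaks of SOX8 and SOX9 in the mouse retina at postnatal day 2 (P2). At postnatal day 17 (P17) they had no called peak of either factor. They were selected on peak overlaps: each is a P2 H3K4me3 peak that overlapped, by 1 bp or more, a P2 SOX8 peak and a P2 SOX9 peak, and overlapped no P17 SOX8 or P17 SOX9 peak. They are 802 of 9134 P2 H3K4me3 peaks (8.78%), and 35.6% of the 2251 peaks that had both factors at P2. The pattern of SOX peaks is thus the selection and not a finding, and the marks at P17 are what was measured besides it. Of the 802 peaks, 735 (91.6%) held the start of at least 1 protein-coding gene, 876 genes in all, so "promoter" fits most of them.

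The peaks come from CUT&RUN, in which an antibody brings a nuclease to a chromatin protein and the DNA released there is sequenced, on wild-type mouse retina. At each age SOX8 was profiled in 4 libraries, from 2 antibodies with 2 replicates, and SOX9, H3K4me3, H3K27ac and a nonspecific IgG in 2 libraries apiece, with 600000 nuclei in a reaction. For the 20 libraries with a target antibody there is 1 peak list per target and age, 8 lists in all, and the 4 IgG libraries were not analysed here. The lists give positions only, with no height and no replicate, so the depth is unknown and presence or absence of a peak is the measurement.

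SOX8 and SOX9 are SoxE transcription factors, which share an HMG domain that binds short DNA sequences of the type ACAATG or ACAAAG. In the retina they are expressed in progenitors and later in Müller glia, the main retinal glial cells. H3K4me3 is a histone mark of promoters that are active or poised, and H3K27ac marks active promoters and enhancers. At P2 the mouse retina still holds dividing progenitors, while at P17 cell division has ended and rods outnumber all other cells.

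The sequences of 6 of these promoters are shown because they represent the 4 states found at P17: Sox2, Nr2e1 and Id2 had neither mark, Notch1 had H3K27ac only, Sox11 had H3K4me3 only and Six6 had both. Each runs from 250 bases before the gene start to 30 after it, 5′ to 3′ on the strand of the gene, from RefSeq for GRCm38.p6. Capitals mark matches on either strand to ACAAAG or ACAATG, the SOX-type letters, or to CCAAT, the letters bound by NF-Y. Sox2 lies at chr3:34649745-34650024 on the plus strand, Nr2e1 at chr10:42583561-42583840 (minus), Id2 at chr12:25096063-25096342 (minus), Notch1 at chr2:26503793-26504072 (minus), Sox11 at chr12:27342689-27342968 (minus) and Six6 at chr12:72939632-72939911 (plus).
Sox2: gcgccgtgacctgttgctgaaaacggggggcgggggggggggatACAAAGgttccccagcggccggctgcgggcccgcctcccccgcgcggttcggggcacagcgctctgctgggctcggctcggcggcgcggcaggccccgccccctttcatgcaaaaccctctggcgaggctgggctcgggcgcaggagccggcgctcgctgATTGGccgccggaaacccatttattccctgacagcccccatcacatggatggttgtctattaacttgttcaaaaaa
Nr2e1: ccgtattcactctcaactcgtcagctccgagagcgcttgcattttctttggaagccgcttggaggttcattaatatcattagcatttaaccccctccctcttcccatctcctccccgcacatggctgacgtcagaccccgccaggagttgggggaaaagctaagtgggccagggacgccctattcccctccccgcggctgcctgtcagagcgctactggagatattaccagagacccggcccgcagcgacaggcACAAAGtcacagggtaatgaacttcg
Id2: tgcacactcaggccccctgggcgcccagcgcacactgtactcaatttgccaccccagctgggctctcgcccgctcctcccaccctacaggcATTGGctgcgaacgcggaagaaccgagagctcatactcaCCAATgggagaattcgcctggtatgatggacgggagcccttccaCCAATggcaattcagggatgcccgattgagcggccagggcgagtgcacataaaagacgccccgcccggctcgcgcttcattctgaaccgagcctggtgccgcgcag
Notch1: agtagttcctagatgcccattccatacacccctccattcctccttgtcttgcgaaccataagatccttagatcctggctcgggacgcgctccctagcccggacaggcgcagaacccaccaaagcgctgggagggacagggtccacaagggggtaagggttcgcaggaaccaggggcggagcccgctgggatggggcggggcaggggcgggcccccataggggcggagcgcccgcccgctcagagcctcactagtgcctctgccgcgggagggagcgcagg
Sox11: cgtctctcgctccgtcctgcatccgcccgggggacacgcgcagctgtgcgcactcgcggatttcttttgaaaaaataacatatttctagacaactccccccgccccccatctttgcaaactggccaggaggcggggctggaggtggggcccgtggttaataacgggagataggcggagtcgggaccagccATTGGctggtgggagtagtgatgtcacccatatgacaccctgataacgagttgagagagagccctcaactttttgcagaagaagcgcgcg
Six6: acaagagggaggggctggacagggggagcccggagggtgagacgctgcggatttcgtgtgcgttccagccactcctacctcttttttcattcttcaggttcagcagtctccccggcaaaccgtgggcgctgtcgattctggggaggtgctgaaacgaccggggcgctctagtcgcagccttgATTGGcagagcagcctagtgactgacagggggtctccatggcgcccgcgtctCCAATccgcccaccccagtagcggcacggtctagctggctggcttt

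In these windows ACAAAG occurred 1 time at Sox2 and 1 time at Nr2e1, ACAATG at none of the 6, and CCAAT 3 times at Id2, 2 times at Six6 and 1 time each at Sox2 and Sox11. The gene start lay inside a P2 SOX9 peak for all 6 and inside a P2 SOX8 peak for all but Nr2e1, whose SOX8 peak lay elsewhere in the same H3K4me3 peak. A match of letters describes the sequence and is not evidence of binding at that place.

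Most of these promoters still had both marks at P17. P17 H3K4me3 overlapped 748 of 802 (93.3%, 95% Wilson interval 91.3 to 94.8%), beside 90.3% of all P2 H3K4me3 peaks. P17 H3K27ac overlapped 737 of 802 (91.9%, interval 89.8 to 93.6%), beside 84.9% of all. Both marks were present at 714 (89.0%), H3K4me3 alone at 34 (4.24%), H3K27ac alone at 23 (2.87%) and neither at 31 (3.87%), beside 6.91% of all P2 H3K4me3 peaks with neither. At P2, 801 of the 802 (99.9%) had overlapped H3K27ac, as had 98.2% of all P2 H3K4me3 peaks. The Wilson intervals cover counting error only.

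They were compared with 3 other classes of P2 H3K4me3 peaks by two-sided Fisher's exact tests, with p-values adjusted by the Benjamini-Hochberg method over the 6 tests. Against the 1449 promoters that had SOX8 and SOX9 at P2 and any SOX at P17, fewer had P17 H3K4me3 (93.3% against 98.6%), a difference of -5.35 percentage points (95% interval -7.36 to -3.65, adjusted exact p = 8.10e-11). Fewer also had P17 H3K27ac (91.9% against 97.9%), a difference of -6.03 points (-8.22 to -4.13, adjusted exact p = 8.10e-11). Neither mark was found at 3.87% of the promoters without P17 SOX and at 0.552% of those with it. Promoters with a P17 SOX peak were thus nearly always marked at P17, and those without one were marked slightly less often. The absence of P17 SOX peaks, which the selection used, may itself go with absence of the P17 marks. This comparison is therefore not independent of the selection.

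Against the 1631 promoters that had SOX9 without SOX8 at P2 and no SOX at P17, more had P17 H3K4me3 (93.3% against 90.1%), by 3.14 points (0.765 to 5.32, adjusted exact p = 0.0098). More also had P17 H3K27ac (91.9% against 86.2%), by 5.69 points (3.06 to 8.13, adjusted exact p = 4.15e-05). Against the 4374 P2 H3K4me3 peaks that overlapped none of the 4 SOX lists, the differences were 6.71 points for H3K4me3 (4.53 to 8.57, adjusted exact p = 3.75e-08) and 14.3 points for H3K27ac (11.9 to 16.4, adjusted exact p = 4.10e-23). The H3K4me3 difference from the SOX9-only class was 2.70 points, with an adjusted Fisher's exact p of 0.105, when only the wider 50% of P2 H3K4me3 peaks were used. All 6 differences were over 1.5 times as large with only the wider 50% of each P17 mark list, where 57.4% of the 802 had H3K4me3 and 61.6% had H3K27ac. Peaks are not replicates, so these p-values compare the lists as they stand and say nothing of the error between animals. The SOX9-only class and the class without SOX were also chosen with earlier results of these data known.

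**Figure D1:**
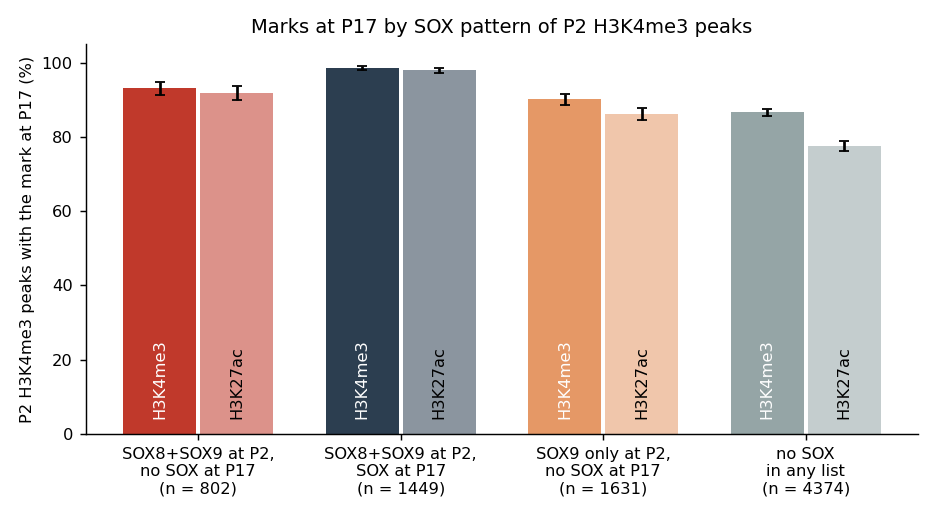
Share of P2 H3K4me3 peaks (y axis, %) that overlapped a P17 peak of H3K4me3 (dark bars) or H3K27ac (light bars), in 4 classes set by their SOX peaks (x axis), with 95% Wilson intervals as error bars. The 802 promoters with SOX8 and SOX9 at P2 only, at 93.3% and 91.9%, lie below the class with both factors at P2 and SOX at P17 and above the other two.

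The marks at P17 also varied with the width of the P2 H3K4me3 peak. All P2 H3K4me3 peaks were divided into 5 groups of equal number by width, which the selection did not use. In the narrowest group (1096 to 2768 bp), 62 of 63 of the selected promoters had P17 H3K4me3 (98.4%, interval 91.5 to 99.7%) and 62 of 63 had P17 H3K27ac. In the widest group (4701 to 34586 bp), 215 of 241 had H3K4me3 (89.2%, interval 84.7 to 92.5%) and 207 of 241 had H3K27ac (85.9%, interval 80.9 to 89.7%). Of the 31 promoters with neither mark, 17 were in the widest group and 0 in the narrowest. In the same widest group, promoters with SOX8 and SOX9 at P2 and SOX at P17 stood at 97.9% for H3K4me3 and 97.4% for H3K27ac. The SOX9-only class stood at 83.1% and 80.8% there, and peaks without SOX at 78.3% and 70.0%. In the narrowest group, promoters with SOX8 and SOX9 at P2 and SOX at P17 stood at 98.6% for H3K4me3. The SOX9-only class stood at 88.8% there and peaks without SOX at 87.4%. A lower H3K4me3 share in the widest group was thus not particular to the selected promoters. Whether the change with width differs between the classes was not tested.

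**Figure D2:**
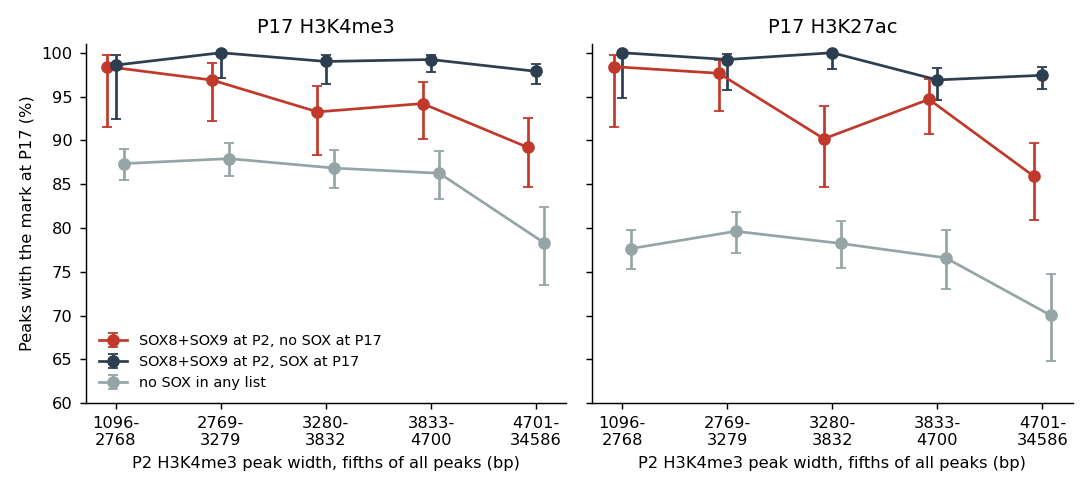
Share of P2 H3K4me3 peaks (y axis, %, starting at 60) with H3K4me3 (left) or H3K27ac (right) at P17, by 5 width groups of P2 H3K4me3 peaks (x axis, bp), with 95% Wilson intervals. The red line, promoters with SOX8 and SOX9 at P2 only, falls to 89.2% and 85.9% in the widest group, while the dark line, promoters with both factors at P2 and SOX at P17, is at 97.9% and 97.4% and the grey line, peaks without SOX, at 78.3% and 70.0% there.

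The 31 promoters with neither mark at P17 included genes of progenitors and of growth control. Their median P2 H3K4me3 width was 5012 bp, against 3960 bp for the 714 with both marks. The widest was Sox2, a SoxB1 factor of neural progenitors and Müller glia, where at P2 an H3K4me3 peak of 10646 bp (chr3:34646881-34657526) held a SOX8 peak 4200 bp wide and a SOX9 peak 6176 bp wide. No P17 H3K4me3, H3K27ac, SOX8 or SOX9 peak overlapped it, and the nearest P17 SOX peak lay 846005 bp away. Id2 (10505 bp) and Id1 (6992 bp), which encode partners that keep bHLH factors off DNA, were in the same state. So were Nr2e1 (10448 bp), an orphan nuclear receptor of neural stem cells, and Zic5 (10186 bp), a zinc finger factor of the early neural tube. Igf2bp3 (8079 bp) encodes an RNA-binding protein of developing tissue.

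The promoter of Sox8 itself was among these 31. Its P2 H3K4me3 peak (chr17:25564698-25572621, 7924 bp) held a SOX8 peak of 3145 bp and a SOX9 peak of 6595 bp, and it overlapped no P17 peak of either mark or either factor. Other members with neither mark were the proneural bHLH gene Neurog2 (5012 bp), the hedgehog effector Gli1 (4623 bp), the secreted Wnt modulator Sfrp2 (5078 bp), the intermediate filament gene Vim (4733 bp), the cell cycle factor E2f1 (5197 bp) and Uhrf1 (3760 bp), which acts in the maintenance of DNA methylation. Each of these had a single-gene P2 H3K4me3 peak overlapped by both SOX factors.

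In 23 promoters H3K27ac remained where no P17 H3K4me3 peak was found. The widest was Ccnd1, encoding cyclin D1, with a P2 H3K4me3 peak of 15933 bp (chr7:144929258-144945190), of which P17 H3K27ac covered 45.1%. Notch1, the Notch receptor gene, had a P2 H3K4me3 peak of 7778 bp with 53.6% of its bases under P17 H3K27ac. Lfng, encoding a glycosyltransferase that modifies Notch receptors, had 7289 bp with 63.0% covered, and Id3 had 8157 bp with 27.3% covered. Frmd4a (10436 bp, 20%) and Rassf4 (5401 bp, 38.8%) complete the 6 widest that hold a coding start. At Notch1 the P17 H3K27ac peaks began downstream of the gene start, as the map of its peaks shows.

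In 34 promoters H3K4me3 remained without P17 H3K27ac. At the start shared by Zic2, a neural zinc finger factor, and Pcca, the P2 H3K4me3 peak was 13049 bp wide and P17 H3K4me3 covered 33.9% of it. At Sox11, a SoxC factor of differentiating neurons, the P2 peak was 8552 bp (chr12:27336331-27344882) and P17 H3K4me3 covered 35.0%. P17 H3K4me3 covered more of the peaks at the transcription factor genes Tbx3 (8263 bp, 76.4%) and Nfib (7336 bp, 95.3%) and at the ephrin gene Efna5 (7268 bp, 86.9%). At Mybl1 (6705 bp), a MYB family gene, it covered 38.7%. P17 H3K4me3 thus covered from 33.9 to 95.3% of the bases of these 6.

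**Figure D3:**
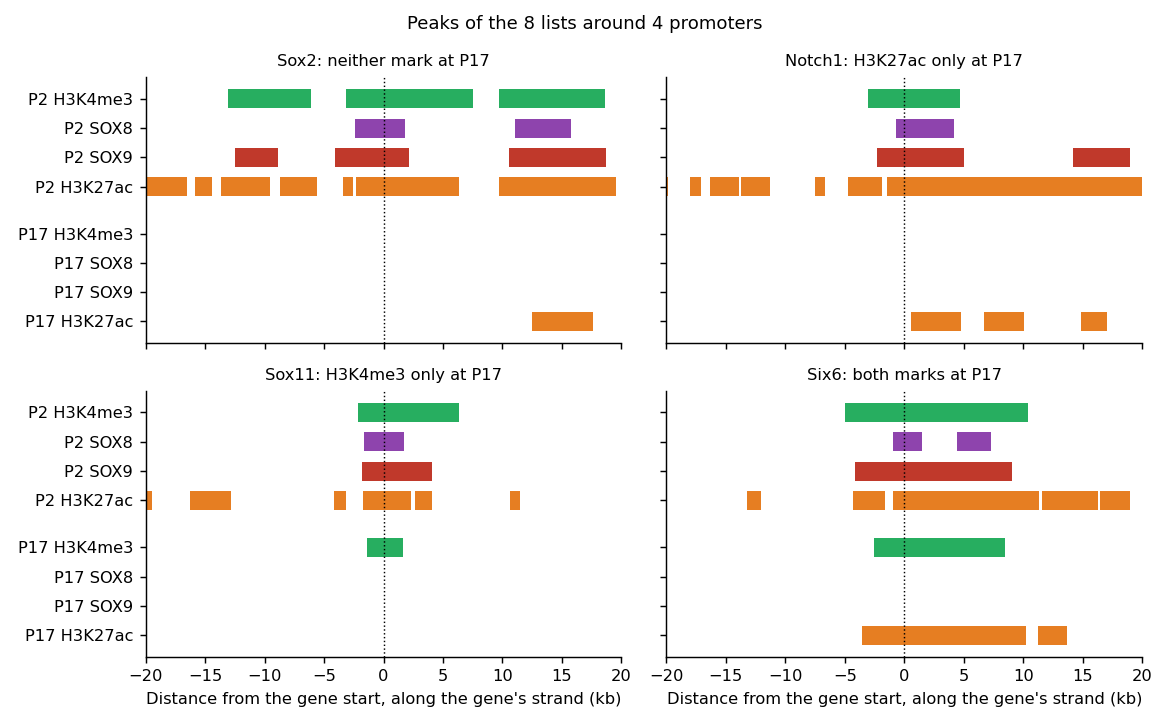
Peaks of the 8 lists (rows) within 20 kb of 4 gene starts, with distance from the start along the gene's strand on the x axis (kb) and the start as a dotted line. Sox2 has no P17 peak over its start, Notch1 has P17 H3K27ac from just after the start, Sox11 has a short P17 H3K4me3 peak, and Six6 has both P17 marks but no P17 SOX peak.

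The group of widest promoters had the lowest share with both marks at P17, 198 of 241 (82.2%), and the narrowest had 61 of 63 (96.8%). Of the 12 widest with a coding start, 5 had both marks at P17 (Six6, Zfp608, Nrarp, Zfp36l1 and the start region of Med22, Rpl7a, Surf1 and Surf2), 4 had neither (Sox2, Id2, Nr2e1, Zic5), 2 had H3K27ac only (Ccnd1, Frmd4a) and 1 had H3K4me3 only (Zic2 with Pcca). Over all 802, 88 (11.0%) lacked at least 1 of the marks. At Six6, an eye homeobox gene, the P2 H3K4me3 peak was 15377 bp and the P17 marks covered 72.0% (H3K4me3) and 89.6% (H3K27ac) of it, although the nearest P17 SOX peak was 101638 bp away.

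Where H3K4me3 remained, it covered most of the P2 domain at most promoters. At the 748 promoters that had it, the widest overlapping P17 H3K4me3 peak was a median of 1.01 times as wide as the P2 peak. The median was 1.05 times over all P2 H3K4me3 peaks with P17 H3K4me3. The P17 peak was the narrower at 361 of the 748 (48.3%), beside 41.9% of all. Over all 802 promoters, those without it included, P17 H3K4me3 covered a median of 92.1% of the bases (quartiles 80.1 and 100%). Over all P2 H3K4me3 peaks the median was 92.9%, so this coverage is not particular to the selected promoters. At 13 of the 748 (1.74%) it covered under 50% of the bases, beside 0.764% of all P2 H3K4me3 peaks with P17 H3K4me3, and 12 of the 13 were in the widest group. Of the 13, 10 held a coding start. These included Hes1, the Notch target that represses proneural genes, where a P2 peak of 9366 bp had 49.4% of its bases under P17 H3K4me3 and 18.1% under P17 H3K27ac. Nrarp, a feedback regulator of Notch signalling, went from 11187 bp to 31.5% covered, and Zfp36l1, encoding an RNA decay factor, from 10322 bp to 42.3%. Mycl (6690 bp, 48.0%), a MYC family gene, Stmn1 (5729 bp, 48.6%), a microtubule regulator of young neurons, and Wee1 (6076 bp, 49.5%), a mitotic kinase gene, were others.

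**Figure D4:**
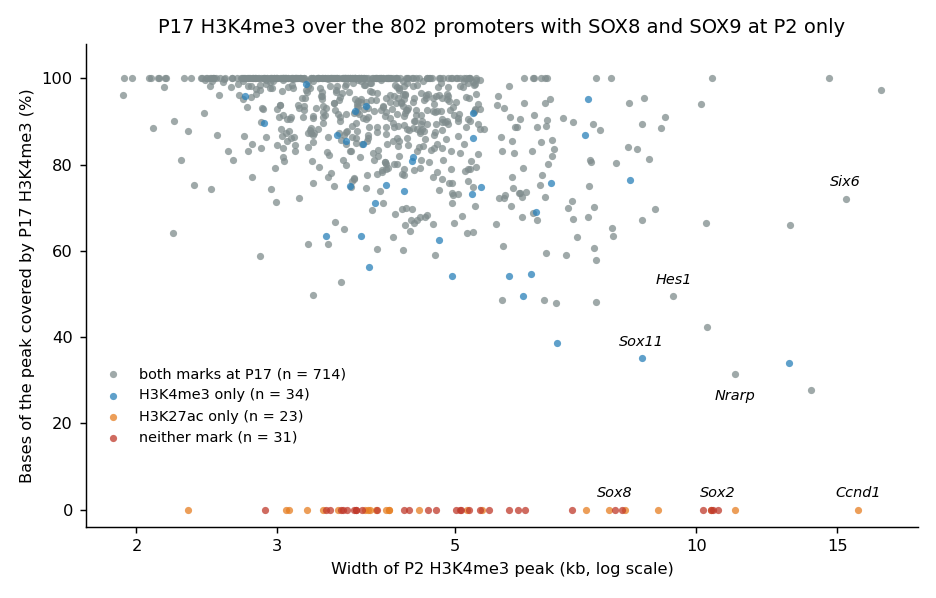
Each point is 1 of the 802 promoters, with the width of its P2 H3K4me3 peak on the x axis (kb, log scale) and the share of its bases covered by P17 H3K4me3 on the y axis (%); colours give the marks present at P17. Points at 0% lack P17 H3K4me3, and 12 of the 13 points between 0 and 50% lie in the group of widest peaks.

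The genes at these promoters were then described by lists of retinal and general functions, chosen with earlier results of these data known. Of the 9569 protein-coding genes that start in a P2 H3K4me3 peak, 876 (9.15%) start in one of the 802. Among retinal progenitor regulators the count was 8 of 26 (30.8%), among them Neurog2, Nr2e1 and Sox2 with neither mark at P17, Sox11 with H3K4me3 only, and Hes1, Six6 and Zfp36l1 with both. Among genes of Müller glia it was 10 of 24 (41.7%): Id1, Id2, Sox2, Sox8 and Vim with neither mark, Id3 with H3K27ac only, Nfib with H3K4me3 only, and Hes1, Glul and Car2 with both. Glul, encoding glutamine synthetase, had P17 H3K4me3 over 100% of its 6260 bp P2 peak and H3K27ac over 59.0%. Car2, encoding carbonic anhydrase 2, had both P17 marks over 100% of its 7497 bp peak. Sox2 and Hes1 stand on both lists. Promoters with SOX8 and SOX9 at P2 and SOX at P17 held 9 of the same 26 progenitor regulators and 2 of the 24 Müller glia genes. That class held 1635 of the 9569 genes.

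Among proneural and neuronal differentiation factors the count was 5 of 18 (27.8%), among them Neurog2 with neither mark and Bhlhe22, Prdm8 and Stmn1 with both. Of the Notch pathway, 4 of 26 genes (15.4%) were found here, the receptor Notch1, its modifier Lfng, the target Hes1 and the feedback regulator Nrarp, and 8 others lay at promoters with SOX8 and SOX9 at P2 and SOX at P17. Axon guidance and adhesion genes gave 5 of 25 (20%): Efnb2, Ncam1, Plxnb2 and Sema6a had both marks and Efna5 had H3K4me3 only. Of the nuclear factor I genes, 1 of 2 (50%) was here, Nfib.

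General functions lay nearer the 9.15% of all genes. Growth factor and MAPK signalling gave 4 of 30 (13.3%), with the FGF-responsive ETS gene Etv4 at neither mark, Spry4 at H3K4me3 only and Dusp4 and Spred1 at both. DNA replication genes gave 5 of 38 (13.2%), of which Cdt1, Mcm4, Orc6 and Pcna had both marks and Uhrf1 had neither. Cell cycle genes gave 3 of 42 (7.14%): Ccnd1, E2f1 and Cdkn2d, a CDK inhibitor gene with both marks. Splicing and RNA-binding genes gave 5 of 39 (12.8%), with Srsf1, Srsf3, Srsf6 and Elavl1 at both marks and Nova1 at H3K4me3 only. Chromatin regulators gave 6 of 47 (12.8%), all with both marks, among them the Polycomb genes Ezh2, Eed and Suz12, while 24 others of that list lay at promoters with SOX8 and SOX9 at P2 and SOX at P17. Ribosomal protein genes gave 4 of 53 (7.55%), oxidative phosphorylation genes 3 of 44 (6.82%), proteasome and ubiquitin genes 2 of 32 (6.25%), all with both marks, and Wnt and Hippo genes 1 of 34 (2.94%), which was Sfrp2.

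No gene of the differentiated neurons on the lists was found at these promoters: 0 of 11 rod, 0 of 2 cone, 0 of 4 bipolar and 0 of 14 amacrine, horizontal and ganglion cell genes that start in a P2 H3K4me3 peak. The count was also 0 of 1 for markers of microglia and vascular cells. At the 9.15% of all genes, lists of this size would hold few or none. The selection also left out any promoter with a P17 SOX peak, so these counts are not independent of it. Of the 11 rod genes, 2 lay at promoters with SOX8 and SOX9 at P2 and SOX at P17. Another 7 of them, and both cone genes, lay at peaks with a SOX pattern outside the 4 classes compared above. These small counts describe the lists and set no limit for other genes of those cells.

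**Figure D5:**
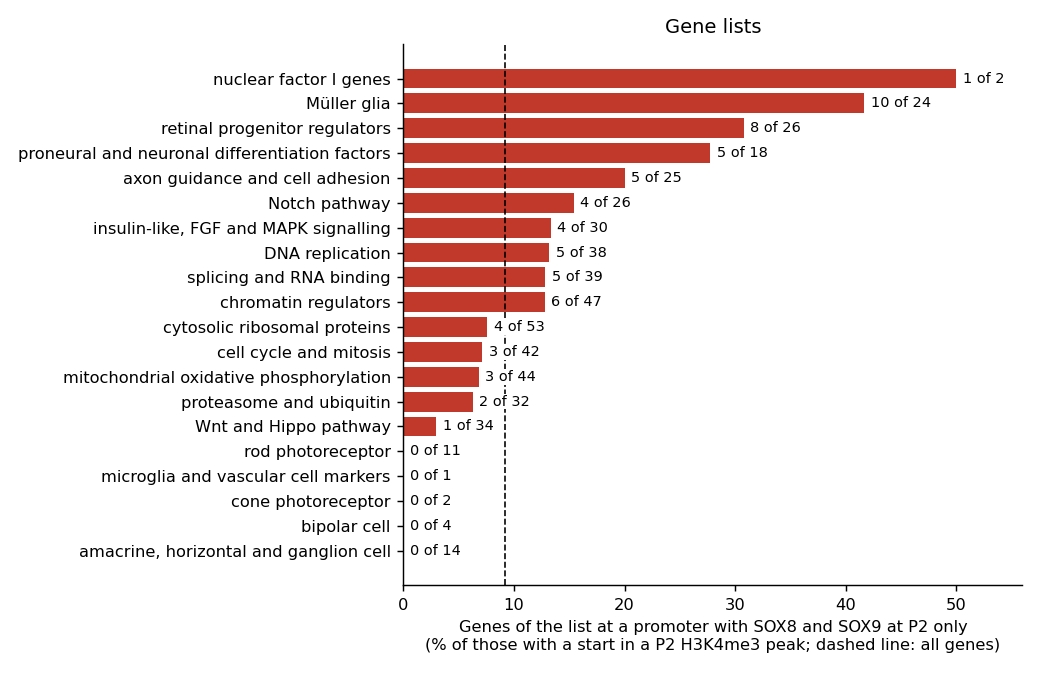
Share of each list's genes (bars, x axis in %) that start at a promoter with SOX8 and SOX9 at P2 only, out of those that start in any P2 H3K4me3 peak, with the counts printed; the dashed line is the 9.15% of all genes. Müller glia (41.7%), retinal progenitor (30.8%) and proneural (27.8%) lists lie above the line. The lists of differentiated neurons are at 0, with only 2 to 14 genes each in P2 H3K4me3 peaks.

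The number of marker genes with H3K4me3 at their start differed between the ages. Of 30 rod genes, 11 started in an H3K4me3 peak at P2 and 29 at P17. Of 26 progenitor regulators, 26 did at P2 and 16 at P17, of 45 cell cycle genes 42 and 17, and of 32 genes of Müller glia 24 and 10. Of 21 microglia and vascular markers, 1 did at each age. Among progenitor regulators at other P2 H3K4me3 peaks, 13 of 18 had P17 H3K4me3, against 4 of 8 at the selected promoters. The order varied between lists. DNA replication genes gave 19 of 33 at other peaks against 4 of 5. The counts were 6 of 14 against 4 of 10 for Müller glia and 19 of 20 against 5 of 5 for axon guidance. These small counts were not tested. In whole retina, fewer cells of a type and less of a mark or factor per cell cannot be told apart, and the part of cell makeup in the results above was not tested.

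The SOX peaks at P2 lay over the gene starts and had lower median widths than at promoters with both factors at P2 and SOX at P17. Of 841 start sites in the RefSeq promoter table that fall in the 802 peaks, 800 (95.1%) were inside a P2 SOX8 peak and 810 (96.3%) inside a P2 SOX9 peak. The widest SOX8 peak at each promoter had a median width of 2000 bp, against 2364 bp where SOX was found at P17, and the widest SOX9 peak 2550 bp against 2949 bp. SOX8 covered a median of 50.3% and SOX9 62.7% of the H3K4me3 peak. SOX9 was the wider in 644 of the 802 (80.3%), and the SOX8 peak lay wholly inside the SOX9 peak in 442 (55.1%). H3K4me3 peaks were also narrower, with a median of 3998 bp against 4560 bp. The difference in SOX width bears on the selection itself and was not tested.

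The widest SOX peaks marked a few loci. The widest SOX8 peaks were at a peak inside Msi1 (10029 bp), which encodes an RNA-binding protein of neural progenitors, at Dbp (6458 bp), a clock-controlled factor, and at Lfng (5751 bp). The widest SOX9 peaks were at the same Msi1 peak (14467 bp), at a peak that holds an end of the noncoding gene 4930578M01Rik (13892 bp) and at the locus of Mir124a-1 (13556 bp). All these promoters had both marks at P17 except Lfng.

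The selection removed every promoter that a P17 SOX peak overlapped, and the P17 lists hold only 2400 (SOX8) and 2855 (SOX9) peaks. Large gaps to the nearest P17 SOX peak are therefore not particular to these promoters. No P17 SOX peak lay within 5 kb at 785 of the 802. The same held at 1588 of the 1631 SOX9-only promoters and 4223 of the 4374 peaks without SOX. The gap to the nearest P17 SOX8 or SOX9 peak had a median of 188229 bp, and ranged from 62 to 24367642 bp. It was under 1 kb at 4 promoters, under 5 kb at 17 and under 50 kb at 188. Of the 876 genes, 69 (7.88%) had a P17 SOX peak somewhere in the gene or within 5 kb of it. Just inside the selection were Ppp1r14b, whose gap was 62 bp, Aamp with 74 bp, the start region of Mpst and Tst with 677 bp, Tomm6 with 793 bp and Lemd2 with 1024 bp. Just outside it were Plxnb1, which a P17 SOX8 peak overlapped by 57 bp, 2700081O15Rik with 74 bp, Tnks1bp1 with 164 bp, Gnai2 with 568 bp and Cops3 with 1048 bp. At P2 the smallest overlaps were 907 bp (SOX8, at the start region of Bscl2 and Gng3), 1015 bp (SOX8, Mroh8 and Rpn2), 1025 bp (SOX8, Tvp23b), 1030 bp (SOX9, Prdm9) and 1063 bp (SOX8, Fkbp15 and Slc31a1). No member thus rested on a P2 overlap of a few bases.

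SOX-type letters were found at these starts at shares close to those of other marked starts. In windows of 300 bases (250 before and 50 after the start), ACAATG on either strand occurred in 58 of 841 (6.90%), beside 6.34% of the 9331 coding promoters in P2 H3K4me3 peaks and 12.6% of all 32851 promoters in the table. ACAAAG occurred in 12.1%, beside 12.1% and 18.7%. CCAAT occurred in 43.2% (interval 39.9 to 46.5%), beside 38.3% and 37.4%, and the GC box GGGCGG in 72.3%, beside 70.1% and 35.7%. At promoters with SOX8 and SOX9 at P2 and SOX at P17, CCAAT occurred in 41.7% (interval 39.4 to 44.0%) and GGGCGG in 77.4%. The ETS letters CCGGAAG were found in 17.1%, beside 20.7% and 8.86%, and in 14.7% at promoters with both factors at P2 and SOX at P17. They were in 0 of the 25 windows at promoters with neither mark at P17 (interval 0 to 13.3%). With H3K27ac only they were in 0 of 22. The rarer NRF1, YY1 and E2F letters were in 45, 32 and 14 of all 841 windows and in 0 of the 25. For letters this rare, 0 of 25 does not show a difference from the other windows. With H3K27ac only, the NRF1 letters were in 2 of 22 and the YY1 and E2F letters in 0 of 22. The median GC content was 65%, beside 63.0% and 52.7%, and 66% at promoters with both factors at P2 and SOX at P17. Matches to different motifs can share bases, and windows of 1 gene with several starts are not independent.

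Few of the promoters were on the X chromosome: 4 of 802 (0.499%), beside 253 of all 9134 P2 H3K4me3 peaks (2.77%). The share was as low, 6 of 1449 (0.414%), at promoters with SOX8 and SOX9 at P2 and SOX at P17. It was 1.47% in the SOX9-only class and 4.92% at peaks without SOX. More than 1 coding gene started in 135 of the 802 (16.8%), beside 13.3% of all P2 H3K4me3 peaks and 19.3% of those with SOX8 and SOX9 at P2 and SOX at P17.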

How the data were processed

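CUT&RUN was done on wild-type mouse retina at P2 and P17. Per the submitters' processing notes, Bowtie2, SEACR and the build GRCm38 were used; roles, versions and thresholds are not given in the sources used here. The authors deposited 8 peak lists of chromosome, start and end, with a score of 0 in every row, 1 for each target and age. Each was taken to stand for its group, but how libraries were combined, and whether IgG was used, is not given. The P2 H3K27ac list holds 287845 peaks and the P17 list 29909. The SOX9 list holds 5476 peaks at P2 (median width 2668.5 bp) and 2855 at P17 (5336 bp). The SOX8 list holds 2653 and 2400. The lists may thus differ in depth or in calling threshold, and either would alter which peaks appear, those of the selection included. Depth is unknown.

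An overlap of at least 1 bp counted as shared. A gene belonged to a peak when its start in the RefSeq promoter table (GRCm38.p6) lay inside it, or, for 4395 of 21887 coding genes without an entry, either gene end. The members, the SOX9-only class, the class without SOX and the gene lists were chosen with earlier results of these data known. Of 605 list genes, 604 matched the gene table. Named were the 12 widest members with a gene start, the 6 widest of each P17 outcome, up to 8 member genes of each list, the 3 with the widest peak of each SOX factor, the 5 nearest to a P17 SOX peak and the 5 with the smallest SOX overlap. Other genes named were chosen after their values were seen, and a gene that the rule names is not reported here. Shares were compared by two-sided Fisher's exact tests (scipy 1.17.1, Python 3.11.15) with Benjamini-Hochberg adjustment. The 8 alternatives were a 50% overlap for SOX or for the marks, no P17 SOX within 5 kb, the wider 50% of P2 H3K4me3 peaks or of the P17 mark lists, autosomes, peaks with a gene start, and 5 width strata. Overlap and test procedures were tested on simulated data.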

Additional observations from a re-analysis of the deposited data

How the results depend on the processing

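Over 8 alternatives of the 6 comparisons, 47 of 48 values kept their direction and side of the threshold and 0 reversed. The exception was P17 H3K4me3 against the SOX9-only class with the wider 50% of P2 H3K4me3 peaks, at 2.70 points (adjusted Fisher's exact p = 0.105); the cause was not tested. In that setting the share of selected promoters with P17 H3K27ac was 89.3%. Differences ranged from -22.6 to -4.93 points (H3K4me3) and -20.3 to -5.65 (H3K27ac) against promoters with both factors at P2 and SOX at P17, from 2.70 to 10.4 and 4.96 to 12.7 against the SOX9-only class, and from 6.04 to 27.5 and 13.4 to 27.5 against peaks without SOX, each largest with the wider 50% of the P17 mark list. With width held in 5 strata they were -5.88 and -6.76, 3.76 and 6.52, and 8.78 and 16.4. The number of selected promoters ranged from 544 to 806. With gene starts within 1 kb of a peak, 0 of the 20 gene list counts moved beyond 1.5 times.

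No paired analysis was possible because the lists name no replicate, and no replicate was left out in turn for that reason. The lists hold no scores and no IgG list was analysed. A peak missing at P17 is therefore a missing call and does not show that the mark or the SOX factor is absent.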

Other observations

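Of the 802 selected peaks, 67 held no coding start (median width 3982 bp), and of these 39 overlapped a coding gene and 26 held an end of a noncoding gene. P17 H3K4me3 overlapped 57 (85.1%) and P17 H3K27ac 61 (91.0%). The widest, at 16993 bp, lay in Msi1, and P17 H3K4me3 covered 97.2% of it. The next, at 14631 bp (chr6:30166095-30180725), held Mir183 and Mir96, sensory microRNA genes that are transcribed together with Mir182, whose hairpin lay 102 bp outside the peak. Both P17 marks covered 100% of this peak. The mature 5p sequences from RefSeq (GRCm38.p6), with the seed (bases 2 to 8) in capitals, are shown for Mir96 and Mir183, which were chosen after the values were seen.
mmu-miR-96-5p: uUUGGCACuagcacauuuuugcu
mmu-miR-183-5p: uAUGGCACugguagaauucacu

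At the Mir124a-1 locus, which holds a gene for the main microRNA of neurons, the P2 H3K4me3 peak was 10471 bp and both P17 marks covered 100% of it. A second peak beside Sox2 (chr3:34659690-34668659, 8970 bp), 7228 bp from the gene, had no P17 H3K4me3, while P17 H3K27ac covered 57.4% of it. It too had carried SOX8 and SOX9 at P2. The gene start of Sox2 and this neighbouring peak thus differed in H3K27ac at P17. Miat, a noncoding gene of the retina, had neither mark.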
